A study of Homo sapiens with 4 samples.

Results

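The genes described here are 9 genes of the retinoic acid pathway, chosen by name. They are the retinoic acid receptor genes *RARA*, *RARB* and *RARG*, the gene of their partner *RXRA*, the binding protein genes *CRABP1* and *CRABP2*, the breakdown enzyme genes *CYP26A1* and *CYP26B1*, and the retinaldehyde reductase gene *DHRS3*. All 9 were found among the 57820 genes of the table, each under a single gene identifier. RNA-seq had been performed on SK-N-SH cells, an established human neuroblastoma cell line, with 2 libraries from cells transduced with an empty lentivirus vector (empty-vector libraries) and 2 libraries from cells transduced with a lentivirus that carries the lncRNA *RP5-998N21.4* behind the EF1a promoter (OE). The titles of the empty-vector libraries say WT, but their treatment label gives the empty vector, so all 4 libraries come from cells that received a lentivirus. No label says whether the replicates were separate cultures, so every p below measures only the spread between these libraries.

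Retinoic acid is made from vitamin A and acts on genes through nuclear receptors. A retinoic acid receptor pairs with a retinoid X receptor on short repeated DNA elements near target genes, where the pair holds corepressors without ligand and recruits coactivators with ligand. CRABP proteins carry retinoic acid inside the cell, CYP26 enzymes oxidise it for removal, and DHRS3 turns its precursor retinaldehyde back into retinol. Retinoic acid makes many neuroblastoma cells stop dividing and grow neurites, and a retinoid is used in the treatment of this tumour.

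Reads were given as whole-number counts per transcript, and the counts of all transcripts of a gene were added up. Library totals were from 23785164 to 28307591 counts, and the 9 genes together held from 4179 to 5252 of them per library. Levels are in CPM, the counts scaled to 1000000 counts of TMM-normalized library size. A count of 0 was read as below 3 counts, a limit of 0.104 to 0.129 CPM per library that covers counting error only. The overexpressed lncRNA itself was at 1.39 ± 0.0213 CPM (SD, n = 2) in empty-vector cells and at 96.5 ± 0.816 CPM (SD, n = 2) in OE cells. Of 8 markers of the neuroblastic cell form, 7 were tested, and all 7 were higher in both OE libraries than in both empty-vector libraries, 5 of them with an unadjusted edgeR p under 0.05, where 27.8% of all tested genes were higher without overlap and 10.1% were higher at that p. Their summed level was 540 and 610 CPM in empty-vector cells and 909 and 869 CPM in OE cells, and the marker *TH* was listed at 0 in all 4 libraries. Of 8 markers of the substrate-adherent (mesenchymal) form, 4 were lower and 1 was higher at that p, where 10.7% of all tested genes were lower and 10.1% were higher. Their summed level was 3600 and 3671 CPM in empty-vector cells and 4077 and 2552 CPM in OE cells. In this sum *VIM* was at 1254 CPM in OE replicate 1 and between 348 and 376 CPM in the other libraries, and *COL1A1* was at 326 CPM in OE replicate 2 and between 883 and 1039 CPM in the others. The 7 markers of other tissues found in the table summed to 1.07 to 2.77 CPM per library. In bulk RNA, a changed share of cells of either form and a changed RNA level per cell cannot be told apart, and the part of the markers in the differences below was not tested.

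Of the receptor and carrier genes, *RARB* was lower in OE cells, at 0.428 of its empty-vector level, while *CRABP1* and *CRABP2* were higher, at 5.08 and 1.69 times their empty-vector levels. *RARA* was also higher, at a mean of 42.3 against 28.3 CPM. None of the 4 passed the adjusted threshold of the main test, which no tested gene passed. Only *RARB*, *CRABP1* and *CRABP2* passed it in DESeq2. *RARG* and *RXRA* differed more between the OE replicates than between the means of the conditions. *CYP26A1* had 0 counts in all 4 libraries.

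Differences were tested with edgeR's quasi-likelihood test over all 20528 genes that passed its filter on low counts, with Benjamini-Hochberg adjustment. The thresholds for a call were those of the study: the log2 fold change had to exceed 0.5 in size, and the adjusted p had to be under 0.01. Of the 9 genes, 8 passed the filter and 0 were called in edgeR, against 0 of all tested genes (0%). The overexpressed lncRNA itself had the lowest edgeR adjusted p of all tested genes (0.0109) and was not called either. The absence of calls is therefore no result particular to the 9 genes. At an adjusted p under 0.05 the number was also 0 of 8, against 122 of all tested genes (0.594%). Without adjustment, 4 of the 8 had an edgeR p under 0.05, where 20.8% of all tested genes did. Of these 4, 3 were higher and 1 was lower in OE cells, where 10.1% of all tested genes were higher and 10.7% were lower. The Wald test of DESeq2 called 3 of the 8 at the study's thresholds (*CRABP1* and *CRABP2* higher, *RARB* lower), where it called 8.77% of all tested genes. At an adjusted p under 0.05, DESeq2 passed 4 of the 8, where 19.8% of all tested genes passed, and 2 genes were lower in DESeq2 at an unadjusted p under 0.05, where 14.9% of all tested genes were. limma-voom called 0. In all 8 genes the OE libraries did not overlap the empty-vector libraries, 5 higher and 3 lower, which held for 55.4% of all tested genes (27.8% higher and 27.6% lower). With 2 libraries against 2, an exact permutation test of a single gene cannot give a two-sided p below 0.333.

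**Figure D1:**
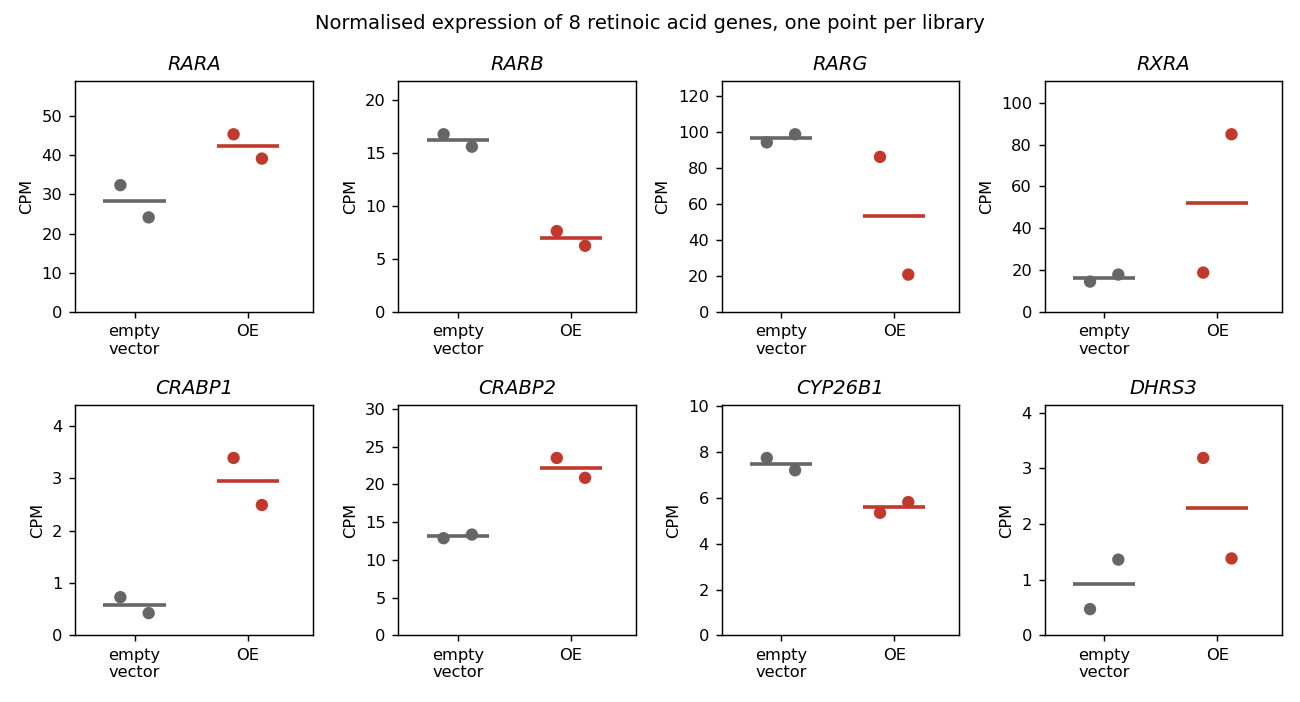
Normalised expression (CPM, linear axis from 0) of the 8 genes with counts; each point is a library, grey for empty vector and red for OE, and each line is the mean of 2 libraries. *RARB* lies between 15.6 and 16.7 CPM in empty-vector cells and between 6.22 and 7.61 CPM in OE, while the OE points of *RARG* and *RXRA* lie far apart.

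*RARB* (ENSG00000077092.14) encodes the beta receptor, itself a classical target gene of retinoic acid. It lies on chromosome 3 (hg19, plus strand) between positions 24729378 and 25639423. It had 390 and 366 counts in the empty-vector cells and 191 and 180 counts in OE cells. Both OE libraries lay below both empty-vector libraries, and the replicates of either condition lay close together. The level was 16.2 ± 0.829 CPM (SD, n = 2) in empty-vector cells and 6.92 ± 0.982 CPM (SD, n = 2) with OE. The log2 fold change was -1.22 (standard error, SE, 0.165, unadjusted p = 0.00226, edgeR adjusted p = 0.0797). It lay between -1.38 and -1.09 when any 1 library was left out. Over the 12 alternatives tried, the adjusted p lay between 2.9e-09 (DESeq2) and 0.296 (replicate block).

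Nearly all reads of *RARB* were placed on the transcript ENST00000330688.4, a protein-coding transcript of 3132 nt in 8 exons that starts at 25469754, inside the gene. It held 385 and 364 counts in empty-vector cells and 177 counts in each OE library. Of the 9 listed *RARB* transcripts, the other two with counts held at most 8 counts in any library. In the test over transcripts, the log2 fold change of ENST00000330688.4 was -1.29 (SE 0.164, unadjusted p = 0.0044, edgeR adjusted p = 0.130).

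The stretch before the start of this transcript is shown because the *RARB* promoter is known for a retinoic acid response element, a repeat of the kind the receptors bind. Windows from 250 bases before to 50 bases after each gene start were taken from RefSeq (GRCh38.p14), 18 windows for the 9 genes. They were searched on both strands for a direct repeat spaced by 5 bases (DR5, GNTCANNNNNNGNTCA). Windows of 2 genes, *RARB* and *CYP26A1*, held a match, as did 0.729% of all 35116 windows. Direct repeats spaced by 2 bases (GNTCANNNGNTCA) and by 1 base (GNTCANNGNTCA) were in 0 of the 18 windows and in 0.678% and 0.766% of all windows. A half-site was here any base followed by GNTCA, and the motif letters leave out the free first base of the first half-site. The bases between the GNTCA blocks are thus the spacer and the free first base of the second half-site. A half-site can belong to matches of more than one of these motifs, and a match is a description of the sequence only. The stretches below were found again in the GRCh37 genome, with 1 match each on their chromosome, at chr3:25469695-25469724 (plus strand) for *RARB* and chr10:94833553-94833582 (plus strand) for *CYP26A1*. Capitals mark the matched letters of the repeat, and the positions given below are those of the matched letters.
RARB: gggtaggGTTCACCGAAAGTTCActcgcat
CYP26A1: ttaaagaTGAACTTTGGGTGAACtaattgt
The *RARB* repeat spans bases 52 to 37 before the start of the transcript that held the reads. The *CYP26A1* repeat spans bases 90 to 75 before a start of that gene and reads GTTCACCCAAAGTTCA on the minus strand. The windows of the other seven genes held no match to these letters.

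*RARA* (ENSG00000131759.13) encodes the alpha receptor, which is expressed in most tissues. It lies on chromosome 17 (plus strand) between positions 38465432 and 38513895. It had 754 and 567 counts in empty-vector cells and 1139 and 1133 counts in OE cells. Both OE libraries lay above both empty-vector libraries, and the empty-vector replicates differed 1.34-fold. The level was 28.3 ± 5.83 CPM (SD, n = 2) in empty-vector cells and 42.3 ± 4.40 CPM (SD, n = 2) with OE. This was a log2 fold change of 0.58 (SE 0.194, unadjusted p = 0.0437, edgeR adjusted p = 0.227). With 1 library left out, the value was lowest without empty-vector replicate 2 (0.38) and highest without empty-vector replicate 1 (0.80).

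The reads of *RARA* fell mainly on 2 protein-coding transcripts with different starts. ENST00000394089.2, which starts at 38474533, had 648 and 316 counts in empty-vector cells and 972 and 995 counts in OE. ENST00000394081.3, which starts at 38498615, had 89 and 233 counts in empty-vector cells and 138 and 130 counts in OE. Of these, only the first lay higher in both OE libraries, and its empty-vector replicates differed by more than those of the whole gene. Exons of 3 genes on the opposite strand overlap *RARA*, of which only *RARA-AS1* is in the table. *RARA-AS1* had 71 and 82 counts in empty-vector cells and 132 and 142 counts in OE. Whether the counting used strand is not given in the sources used here, so reads of the pair cannot be told apart.

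*RARG* (ENSG00000172819.12) encodes the gamma receptor and lies on chromosome 12 (minus strand) between positions 53604351 and 53626764. It had 2191 and 2317 counts in empty-vector cells, 2159 counts in OE replicate 1 and 597 counts in OE replicate 2. OE replicate 1 lay close to the empty-vector libraries and OE replicate 2 lay far below them. In CPM the OE replicates differed 4.17-fold, and the empty-vector replicates 1.05-fold. The log2 fold change was -0.85 (SE 0.732, edgeR adjusted p = 0.570), and it was -0.16 without OE replicate 2 and -2.22 without OE replicate 1. The drop in OE replicate 2 was on the transcript ENST00000425354.2, the canonical protein-coding transcript of 2917 nt, which had 1850, 2009, 1828 and 113 counts in empty-vector replicates 1 and 2 and OE replicates 1 and 2. In the same order, ENST00000394426.1, also protein-coding, had 247, 295, 255 and 195 counts. ENST00000550265.1, annotated as a retained intron, had 94, 0, 71 and 268 counts. No exon of another annotated gene overlaps *RARG*.

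*RXRA* (ENSG00000186350.8) encodes the retinoid X receptor alpha, a partner of many nuclear receptors, and lies on chromosome 9 (plus strand) between positions 137208944 and 137332431. It had 336 and 418 counts in empty-vector cells, 470 counts in OE replicate 1 and 2458 counts in OE replicate 2. Here OE replicate 2 stood apart upwards, and the OE replicates differed 4.54-fold in CPM. The log2 fold change was 1.69 (SE 0.798, edgeR adjusted p = 0.335), and it was 0.22 without OE replicate 2. Of the 2458 counts in OE replicate 2, 2390 were on ENST00000356384.4, an *RXRA* transcript of 5770 nt without a defined coding sequence, which had 0 counts in the other three libraries. The canonical transcript ENST00000481739.1 had 173 counts in empty-vector replicate 1 and 0 in the others. ENST00000540193.1 had 163 and 324 counts in empty-vector cells, 355 counts in OE replicate 1 and 0 in OE replicate 2. No transcript of *RXRA* had counts in all 4 libraries. How reads shared by transcripts of 1 gene were assigned is not given in the sources used here, so the split between transcripts is less certain than the sum per gene. Among the 17601 genes that averaged 1 CPM or more, the OE replicates differed more than 3-fold in 4.6% and the empty-vector replicates in 4.64%.

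**Figure D2:**
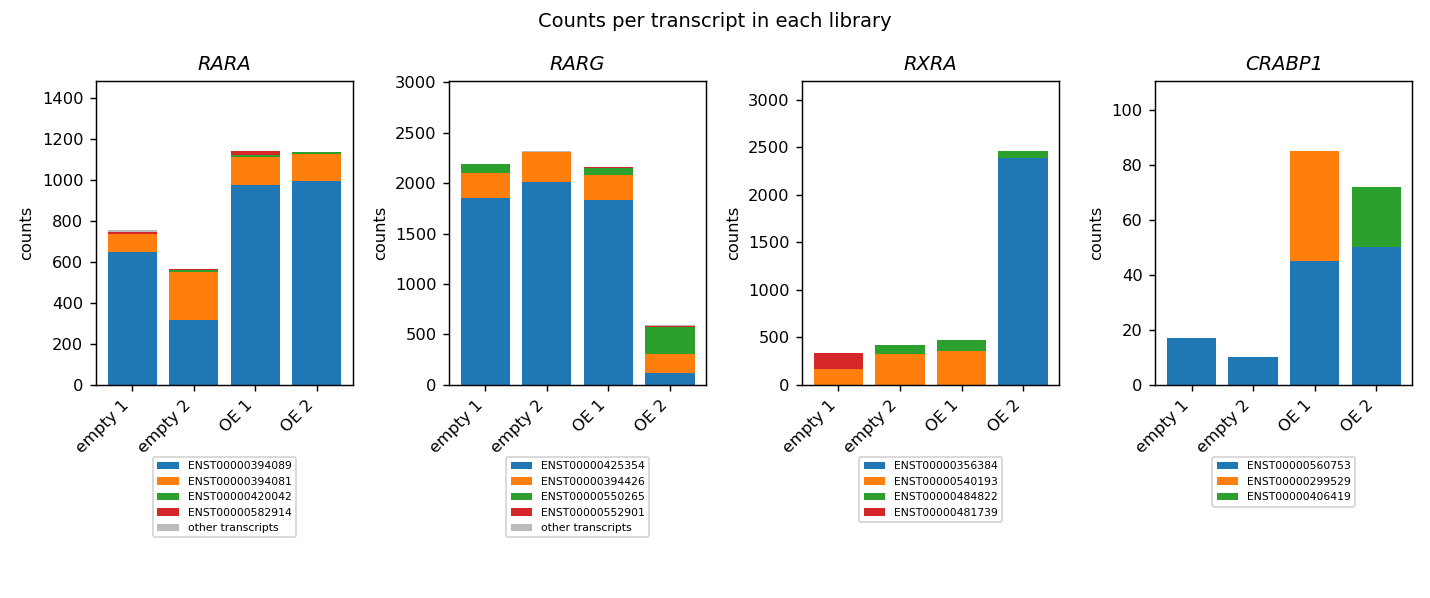
Counts per transcript (not scaled to library size) of *RARA*, *RARG*, *RXRA* and *CRABP1* in the 4 libraries, stacked by transcript, with any transcripts beyond the 4 with the most counts in grey. In OE replicate 2, *RARG* lacks most of the counts of ENST00000425354 and *RXRA* has 2390 counts on ENST00000356384, which has 0 in the other libraries.

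Levels of different genes were compared only per length, as CPM per kilobase of all annotated exons of a gene. In empty-vector cells, *RARG* had the highest level of the receptors (18.8 ± 0.623 CPM per kilobase, SD, n = 2), followed by *RARA* (5.96 ± 1.23), *RARB* (1.71 ± 0.0878) and *RXRA* (1.33 ± 0.197). Of the summed level of the 3 RAR genes per kilobase, *RARG* made up 68.1% and 74.1% in empty-vector cells and 61.8% and 31.1% in OE cells. *RARA* made up 25.3% and 19.6% in empty-vector cells and 35.2% and 63.8% in OE. *RARB* made up 6.58% and 6.35% in empty-vector cells and 2.97% and 5.09% in OE. The shares of the conditions did not overlap for any of the 3 genes. They are parts of one sum in each library and so not separate results. In OE replicates 1 and 2, *RARA* itself was at 9.57 and 8.26 CPM per kilobase and *RARG* at 16.8 and 4.03. The larger *RARA* share in OE replicate 2 thus came with a lower *RARG* level and not with a higher *RARA* level. The differences of the mean shares were 27.1 percentage points for *RARA*, -24.6 for *RARG* and -2.44 for *RARB*, each with an exact permutation p of 0.333 (two-sided, n = 2 against 2), the smallest the design can give. Without OE replicate 2, the differences were 12.8 points for *RARA*, -9.28 for *RARG* and -3.50 for *RARB*. Without OE replicate 1, they were 41.3 points for *RARA*, -40.0 for *RARG* and -1.37 for *RARB*.

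*CRABP1* (ENSG00000166426.7), one of the retinoic acid carriers of the cytosol, lies on chromosome 15 (plus strand) between positions 78632695 and 78640567. It had 17 and 10 counts in empty-vector cells and 85 and 72 counts in OE cells. Every OE value was above every empty-vector value, at low counts. The level was 0.578 ± 0.215 CPM (SD, n = 2) in empty-vector cells and 2.94 ± 0.635 CPM (SD, n = 2) with OE. The log2 fold change was 2.34 (SE 0.390, unadjusted p = 0.00478, edgeR adjusted p = 0.0999), the highest of the 8 genes, and lay between 2.00 and 2.77 when any 1 library was left out. Its adjusted p was 1.7e-05 in DESeq2 and at most 0.296 in the other alternatives. All counts of the empty-vector libraries were on ENST00000560753.1, a single-exon stretch of 401 nt at the 3′ end of the gene annotated as a retained intron, which had 45 and 50 counts in OE. The spliced transcripts had counts only in OE, 40 counts on the canonical ENST00000299529.6 in OE replicate 1 and 22 on ENST00000406419.1 in OE replicate 2. On ENST00000560753.1 alone the log2 fold change was 1.59 (SE 0.399, edgeR adjusted p = 0.268 over transcripts). The gene ENSG00000279694, which is not in the table, overlaps *CRABP1* on the opposite strand over 440 exon bases, and reads of the pair cannot be told apart.

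*CRABP2* (ENSG00000143320.4), the carrier that hands retinoic acid to its receptors in the nucleus, lies on chromosome 1 (minus strand) between positions 156669398 and 156675608. It had 300 and 314 counts in empty-vector cells and 590 and 604 counts in OE cells, all on the canonical transcript ENST00000368222.3 of 974 nt. Both conditions were tight, and they did not overlap. The level was 13.1 ± 0.339 CPM (SD, n = 2) in empty-vector cells and 22.2 ± 1.86 CPM (SD, n = 2) with OE. This was a log2 fold change of 0.76 (SE 0.125, unadjusted p = 0.00454, edgeR adjusted p = 0.0983), between 0.67 and 0.84 when any 1 library was left out. Its adjusted p was 3.7e-06 in DESeq2 and at most 0.302 in the other alternatives. Per kilobase, *CRABP2* was at 12.1 ± 0.314 in empty-vector cells and 20.5 ± 1.72 in OE, and *CRABP1* at 0.603 ± 0.225 and 3.06 ± 0.662 (CPM per kilobase, SD, n = 2), so *CRABP2* was the higher of the carriers in every library.

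**Figure D3:**
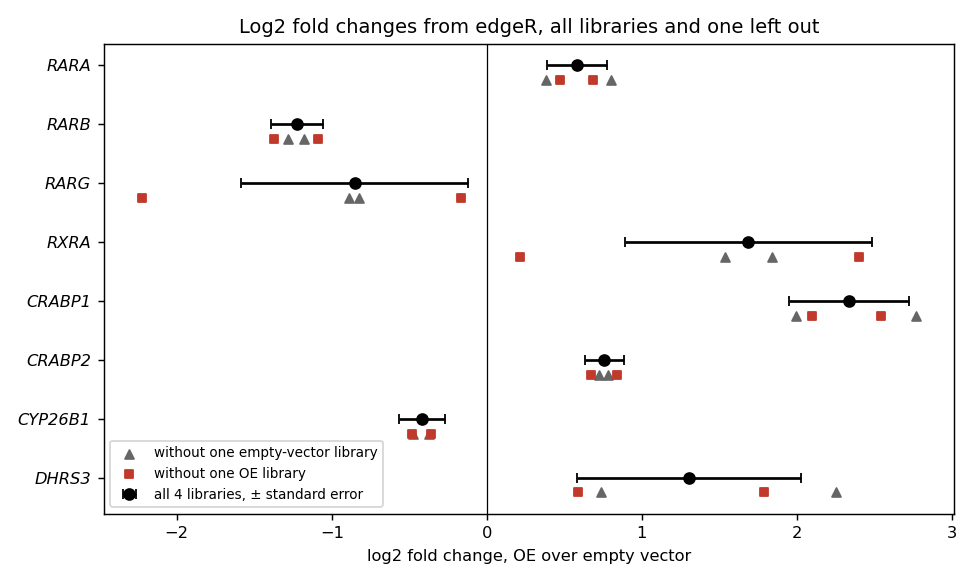
Log2 fold change of OE over empty vector for the 8 tested genes from edgeR; black points with bars are the estimate from all 4 libraries ± standard error, grey triangles leave out an empty-vector library and red squares an OE library. The squares of *RARG* lie at -2.22 and -0.16 and those of *RXRA* at 0.22 and 2.40, while *RARB*, *CRABP1* and *CRABP2* keep close to their estimates.

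*CYP26B1* (ENSG00000003137.4), an enzyme that oxidises retinoic acid, lies on chromosome 2 (minus strand) between positions 72356367 and 72374991. It had 180 and 169 counts in empty-vector cells and 134 and 168 counts in OE cells, all on the canonical transcript ENST00000001146.2. After scaling to library size, both OE libraries lay slightly below both empty-vector libraries. The level was 7.46 ± 0.380 CPM (SD, n = 2) in empty-vector cells and 5.57 ± 0.331 CPM (SD, n = 2) with OE, a log2 fold change of -0.42 (SE 0.149, unadjusted p = 0.052, edgeR adjusted p = 0.245). *CYP26A1* (ENSG00000095596.7), the related enzyme that retinoic acid itself strongly induces in many cells, lies on chromosome 10 (plus strand) between positions 94833232 and 94837642. It had 0 counts on all 3 listed transcripts in all 4 libraries, and no difference could be measured. For counting error alone this allows up to 0.129 CPM, and it does not cover reads lost before counting. The gene ENSG00000285846, which is not in the table, overlaps *CYP26A1* on the same strand over 750 exon bases. *CYP26C1*, the other gene of this enzyme family, was also at 0 in all libraries.

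*DHRS3* (ENSG00000162496.4), the retinaldehyde reductase, lies on chromosome 1 (minus strand) between positions 12627939 and 12678216. It had 11 and 32 counts in empty-vector cells and 80 and 40 counts in OE cells. In CPM the values were 0.472 and 1.36 in empty-vector cells and 3.19 and 1.38 in OE. The lower OE value lay just above the higher empty-vector value. The log2 fold change was 1.31 (SE 0.722, edgeR adjusted p = 0.395), between 0.59 and 2.25 when any 1 library was left out.

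Across the 60 listed transcripts of the 9 genes, 27 had counts and 13 passed the filter on low counts. In edgeR's test over 30255 transcripts, 0 of the 13 were called at the study's thresholds, against 0% of all tested transcripts. DESeq2 called 3 of them, where it called 9.12% of all tested transcripts. At an unadjusted p under 0.05, 2 were higher (those of *CRABP1* and *CRABP2* named above) and 1 was lower (that of *RARB*), where 14.6% of all tested transcripts passed in either direction.

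The order of the levels per kilobase differed between the conditions. In empty-vector cells it was *RARG*, *CRABP2*, *RARA*, *RARB*, *CYP26B1*, *RXRA*, *CRABP1* and *DHRS3*. Neighbours in that order did not overlap between libraries, but *RARB* (1.65 to 1.77), *CYP26B1* (1.49 to 1.60) and *RXRA* (1.19 to 1.47 CPM per kilobase) lay close together. In OE, *CRABP2* came first (19.3 to 21.7), *RARG* (4.03 to 16.8) overlapped *RARA* (8.26 to 9.57), and *RXRA* (1.55 to 7.04) overlapped *CRABP1* (2.60 to 3.53 CPM per kilobase). *CYP26B1* (1.10 to 1.20) stood above *RARB* (0.659 to 0.806) and *DHRS3* (0.393 to 0.907), and the last pair overlapped. This order depends on the length used. All annotated exons span 5127 bases in *RARG*, 9445 in *RARB*, 4839 in *CYP26B1* and 12077 in *RXRA*. The longest transcripts have 2917, 4897, 4556 and 5770 nt in the same order. With those lengths, close ranks and the place of *CRABP2* before *RARG* in OE can change. The order was not tested with them.

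The rest of the pathway was described on a list of 51 other genes, of which 50 were found in the table, 33 were tested and 13 were at 0 in all libraries. Of the 33, 0 were called at the study's thresholds in edgeR, against 0% of all tested genes. At an unadjusted p under 0.05, 2 were higher and 3 were lower, 5 of the 33, where 20.8% of all tested genes passed, so the list held no more such genes than the background. DESeq2 called 1 higher and 2 lower, where it called 8.77% of all tested genes, and limma-voom called 0. Their median log2 fold change was 0.06, beside 0.01 over all tested genes. Of these 5 genes, 4 were among the 11 tested known target genes and 1 was among the 2 tested enzymes that make retinoic acid. The 10 coregulators that work with the receptors (the corepressor gene *NCOR1* and the coactivator genes *NCOA1*, *NCOA2*, *NCOA3*, *EP300* and *CREBBP* among them) had log2 fold changes from -0.15 to 0.24, and 0 of the 10 had an unadjusted p under 0.05 in edgeR. Differences between these roles were not tested.

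*TGM2*, the transglutaminase gene that retinoic acid induces in many cells, was the one gene of the 33 with an adjusted p under 0.05 in edgeR, where 0.594% of all tested genes passed. It had 54260 and 55713 counts in empty-vector cells and 40371 and 47091 counts in OE cells. Its level was 2351 ± 28.9 CPM (SD, n = 2) in empty-vector cells and 1618 ± 13.5 CPM (SD, n = 2) with OE, a log2 fold change of -0.54 (SE 0.0323, edgeR adjusted p = 0.0376). The adjusted p was 0.0831 to 0.102 when any 1 library was left out, over 12 alternatives from 4.8e-117 to 0.296, and the log2 fold change stayed between -0.56 and -0.50. Exons of *RPRD1B* on the opposite strand, with 1776 to 2375 counts per library, overlap *TGM2* over 396 bases. *RET*, a receptor tyrosine kinase gene of the sympathetic lineage and a known retinoic acid target in neuroblastoma cells, had 1121 and 979 counts in empty-vector cells and 2083 and 2197 counts in OE. Its log2 fold change was 0.82 (SE 0.122, edgeR adjusted p = 0.0893, from 1.4e-08 in DESeq2 to 0.296 over the alternatives), with both OE libraries above both empty-vector libraries. *HOXD4*, a homeobox gene with a retinoic acid response element, had 56 and 66 counts in empty-vector cells and 0 in both OE libraries. Against a limit of 3 counts per OE library, it was at least 23.4-fold lower in OE (edgeR adjusted p = 0.069, from 2.2e-07 in DESeq2 to 0.296 over the alternatives). *CDX1*, a homeobox gene outside the naming rule because its mean was under 1 CPM and named after its values were seen, had 8 and 13 counts in empty-vector cells and 29 and 46 in OE (log2 fold change 1.61, SE 0.420, edgeR adjusted p = 0.168).

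Among the enzymes that turn retinaldehyde into retinoic acid, *ALDH1A3* had 42 and 30 counts in empty-vector cells and 20 counts in each OE library (log2 fold change -1.05, SE 0.332, unadjusted p = 0.0378, edgeR adjusted p = 0.212). The antisense gene *ALDH1A3-AS1*, whose exons overlap it over 1715 bases, had 5 and 5 counts in empty-vector cells and 53 and 32 counts in OE, and without known strand use the reads of the pair cannot be told apart. *ALDH1A1* was at 0 in all libraries, and *ALDH1A2* had from 8 to 23 counts per library. *RDH10*, which makes retinaldehyde from retinol, differed 2.86-fold between the OE replicates (136 and 391 CPM) around empty-vector levels of 247 and 260 CPM. *STRA6*, the retinol uptake receptor gene, was at 41.0 and 13.9 CPM in OE and at 17.7 and 21.7 CPM in empty-vector cells. For both genes the conditions overlapped. Antisense exons of *RDH10-AS1* and *CCDC33* overlap these genes, with at most 106 and 88 counts per library.

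The other retinoid X receptor genes could not be compared. *RXRG* was at 0 in all libraries. *RXRB*, a gene that most cells express, was also listed at 0 in all libraries, as were 16 of the 18 protein-coding genes within 200 kb of it on chromosome 6, *RXRB* included and the ribosomal protein gene *RPS18* among them. This 0 was therefore not read as absence of *RXRB*.

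**Figure D4:**
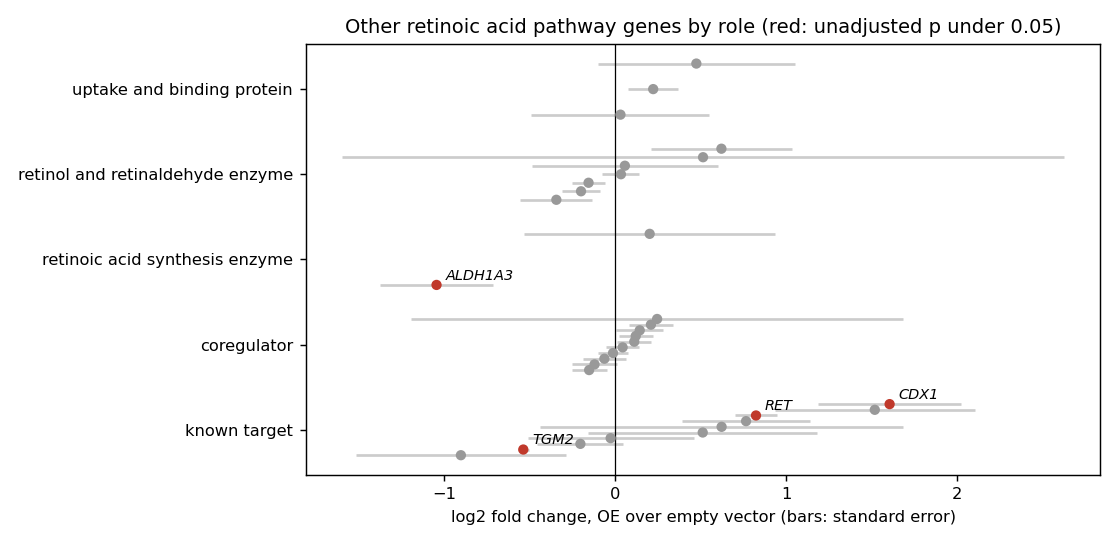
Log2 fold change of OE over empty vector for 32 tested genes of the wider pathway list, by role, from edgeR, with standard errors; red points have an unadjusted p under 0.05. *HOXD4*, at 0 in both OE libraries, is not drawn, and the 10 coregulators lie between -0.15 and 0.24.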

How the data were processed

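RNA-seq counts of 4 libraries were analysed, 2 empty-vector and 2 OE, grouped by their treatment label. Per the paper's methods, the authors used FastQC and Trimmomatic for read quality and Bowtie2 (2.0.4 in the submitters' processing notes) for alignment to hg19. The deposited values are raw counts per transcript without normalization. The counting tool, annotation release and use of strand are not given in the sources used here. The submitters' notes also list StringTie 2.1.6 and Picard 2.21.6 without a role, and how reads shared by transcripts of a gene were assigned is not stated, so values of single transcripts may be estimated assignments. Counts were summed per gene, filtered with filterByExpr, normalized by TMM and tested with edgeR 4.0.16 (R 4.3.3, quasi-likelihood, no covariates), with Benjamini-Hochberg adjustment. The study used DESeq2, which was run as an alternative (1.42.0), as was limma-voom (3.58.1). Other alternatives were fits without 1 library, RLE or upper-quartile normalization, a replicate block, other filters (1 count in total, or 10 counts on average), and 1 transcript per gene, the one with the highest mean count. The script was tested on simulated counts with much less spread between replicates than these data had (common dispersion 0.122). That test therefore does not show how many real differences could be called here. Positions, lengths and overlapping exons came from the GENCODE annotation lifted to GRCh37, which held all 9 genes and 24 of their 27 transcripts with counts. Shares were tested with scipy 1.17.1. The genes and lists were chosen with earlier results of these data known. The text names the 9 genes and every gene of the pathway list with a mean of at least 1 CPM, an unadjusted p under 0.05 and groups that do not overlap. Other genes it names give context and were chosen after their values were seen.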

Additional observations from a re-analysis of the deposited data

How the results depend on the processing

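The log2 fold changes of the 8 tested genes and of 4 named pathway genes kept their direction in all 143 values recomputed under the alternatives, with 0 reversed. In all of these genes the OE libraries did not overlap the empty-vector libraries, and the 4 were named partly for that. Leaving out 1 library could therefore hardly reverse a direction, so the kept directions are no separate support. The choice of test moved the calls most. DESeq2 called 3 of the 9 genes, 3 pathway genes, 3 transcripts of the 9 genes and 1800 of all genes, where edgeR called 0 of each. It gave 4 of the 9 genes an adjusted p under 0.05 (edgeR 0) and 2 lower genes at an unadjusted p under 0.05 (edgeR 1). Over all genes, edgeR called 9 with a minimum of 1 count in total and 1 with the transcript of the highest mean count per gene, none of them among the 9 genes. With each library left out in turn, the number of lower genes at an unadjusted p under 0.05 was 1 to 2 (2 without OE replicate 1) and that of higher genes was 2 to 3 (2 without empty-vector replicate 2 and 2 without OE replicate 2). It was also 2 higher genes with the transcript of the highest mean count per gene. The cause of these changes was not tested.

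The replicate numbers of the labels do not say that libraries were paired. Over 17601 genes, the deviations of same-numbered libraries from their group means had a correlation of -0.01 (Pearson's r, across genes, which are not independent). With the replicate block, edgeR called 0 of the 9 genes and 0 of all genes, as without it. *RXRA* had no value with the transcript of the highest mean count, since that transcript did not pass the filter on low counts. Counts under 100 per library limit *CRABP1* and *DHRS3*, and no dispersion rests on more than 2 libraries per condition.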

Other observations

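Other genes of the pathway list, singled out after their values were seen, had libraries that stood apart. The homeobox gene *MEIS2* had 331 counts in empty-vector replicate 1 and 2956, 2620 and 3215 counts in empty-vector replicate 2 and OE replicates 1 and 2, and *MEIS1* had 78 counts beside 276, 315 and 260 in the same order. *NAV2*, a neuronal gene first described as induced by retinoic acid, had 4751 counts in empty-vector replicate 1, 9675 in replicate 2 and 13515 and 14703 in the OE libraries. The retinol dehydrogenase gene *RDH5* had 0, 14, 22 and 0 counts in empty-vector replicates 1 and 2 and OE replicates 1 and 2, while the gene ENSG00000258311, whose exons overlap it on the same strand over 2035 bases, had 188, 0, 0 and 148 counts in that order. The retinoic acid responder genes *RARRES1*, *RARRES2* and *RARRES3* were low, with at most 29 counts in any library.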
